A study of Rattus norvegicus with 8 samples.

Results

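The genes described here are 46 rat genes of the DNA replication fork and of nucleotide supply, taken by name and sorted by role into origin licensing, helicase activation and origin firing, fork protection, polymerases and primase, sliding clamp and clamp loader, single-strand binding, Okazaki fragment processing, nucleotide supply, and chromatin assembly with maintenance methylation. A gene counted as measured where a non-control probe carried its name. Of the 46 genes, 45 were on the array under these names, among 36174 genes in all, and all 45 were well above background on all 8 arrays and were tested, among 17392 genes tested. Chaf1a, which encodes the large subunit of chromatin assembly factor 1, was not analysed here. The cells were NR8383, an established line of rat alveolar macrophages that was derived by lung lavage from a normal animal and that grows partly attached and partly in suspension. Both groups were kept for 4 h in medium with no fetal bovine serum, and the treated group received NM401, a multi-walled carbon nanotube, at 0.17 µg/mL, which the control group did not. Each group had 4 biological replicates on 1-colour Agilent arrays, and the comparison asks which replication transcripts differed between untreated and nanotube-treated cells.

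A cell copies its DNA once per cycle. In G1 phase the origin recognition complex, Cdc6 and Cdt1 load the MCM helicase onto origins, which is called licensing, and kinases with Cdc45, GINS and Mcm10 then turn the helicase on. At the running fork polymerase alpha with primase lays down primers, polymerase epsilon copies the leading strand and polymerase delta the lagging strand, both held by the PCNA clamp that replication factor C loads. Replication protein A coats the single strands, Fen1 and Lig1 join the lagging-strand pieces, and ribonucleotide reductase with its partner enzymes supplies the deoxynucleotides. Many of these genes are transcribed in waves from late G1 into S phase under E2F factors. NR8383 cells divide in culture.

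Levels are log2 of the processed spot signal minus the 75th percentile of that signal on the same array, so 0 is the level of that percentile and a difference of 1 is a doubling. The 75th percentile was 1236 ± 224 signal units (SD, n = 4) on control arrays and 2692 ± 172 (SD, n = 4) on NM401 arrays, and the share of spots well above background ranged from 51.7% to 58.0% over the arrays. Slide 1 held the 4 control arrays with NM401 replicate 1, and slide 2 the other NM401 arrays. Row 1 of a slide held control and row 2 held NM401, and these cannot be told apart. Across genes, arrays of 1 group were correlated at r = 0.989 to 0.996 and arrays of different groups at r = 0.966 to 0.983. Spike-in RNA probes, 7 of them, were lower by 2.47 on the log2 scale on NM401 arrays after this scaling, and the amounts of spike-in per cell were not given in the sources used here, so every difference below, the word fell included, is relative to the rest of the array. Set against the spike-in shift, 0 of the replication genes and 128 of 17392 genes tested fell by more than it. Of 13 macrophage markers on the array 10 were well above background on all 8 arrays, with Cd163 and Marco on none. The log2 of their summed signal, carried by the bright Lyz2 and Cd68, ranged from 7.07 to 7.15 in control and from 6.91 to 6.99 in NM401. Of the 11 tested markers, however, 4 rose (Adgre1 by 1.49, Msr1 by 1.06, Spi1 by 0.56 and Fcgr1a by 0.36). Another 3 fell (Mrc1 by 0.59, Cd68 by 0.36 and Lyz2 by 0.16), and the median log2 fold change was 0.24. Adgre1 was well above background on 1 control array and 4 NM401 arrays, so its rise is measured from values near background. Of 8 epithelial markers 1, Ager, was well above background on 4 or more arrays, with Cdh1, Epcam, Krt8 and Krt18 on none. Only Ager was tested, and its log2 level ranged from -4.53 to -4.26 in control and from -3.61 to -3.28 in NM401. The lymphocyte markers Cd3d and Nkg7, 2 of 5 on the array, fell by 0.79 and 1.24, with Cd3e among those well above background on no array, and summed to -0.59 to -0.17 in control and -1.59 to -1.55 in NM401. Fibroblast and endothelial markers (4 of 7, with Col1a1, Col3a1 and Pdgfra on none) summed to 1.41 to 1.82 in control and 1.34 to 1.38 in NM401. Neutrophil markers (3 of 6, with Elane, Csf3r and S100a9 on none) summed to -1.14 to -0.64 and -1.73 to -1.21. The bright Vwf and Camp carry these sums. Col1a2 fell by 1.20 and Cdh5 by 1.15, and Vwf and Pecam1 did not pass. Mpo fell by 3.11, S100a8 by 0.93 and Camp by 0.49. Mpo was well above background on 4 control arrays and 0 NM401 arrays, so its fall runs into values near background. The part of these shifts in the results below was not tested. In such bulk RNA, fewer cells in S phase and less of a transcript per cell cannot be told apart.

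Of the 45 replication genes tested, 17 fell and 9 rose with NM401 and 19 did not pass the test (limma, adjusted p below 0.05 by Benjamini-Hochberg over all probes tested). Of all genes tested, 35.4% fell and 21.9% rose by the same rule, 57.4% in either direction, and the replication genes' shares of 37.8% and 20% lay near these. The median log2 fold change of the 45 genes was -0.15, against -0.10 over all genes, and 30 of the 45 lay below 0, against 58.5% of all genes. The changes were small: 2 genes (Uhrf1 and Pold2) fell and 2 (Orc2 and Orc6) rose by at least 1.5-fold, shares that stood at 15.2% and 7.04% over all genes. All 4 NM401 values lay below all 4 control values for 18 of the 45 genes (32.2% of all genes) and above them for 8 (21% of all genes). The number of calls was thus near the background in both directions, and no direction is read for the genes as a whole.

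**Figure D1:**
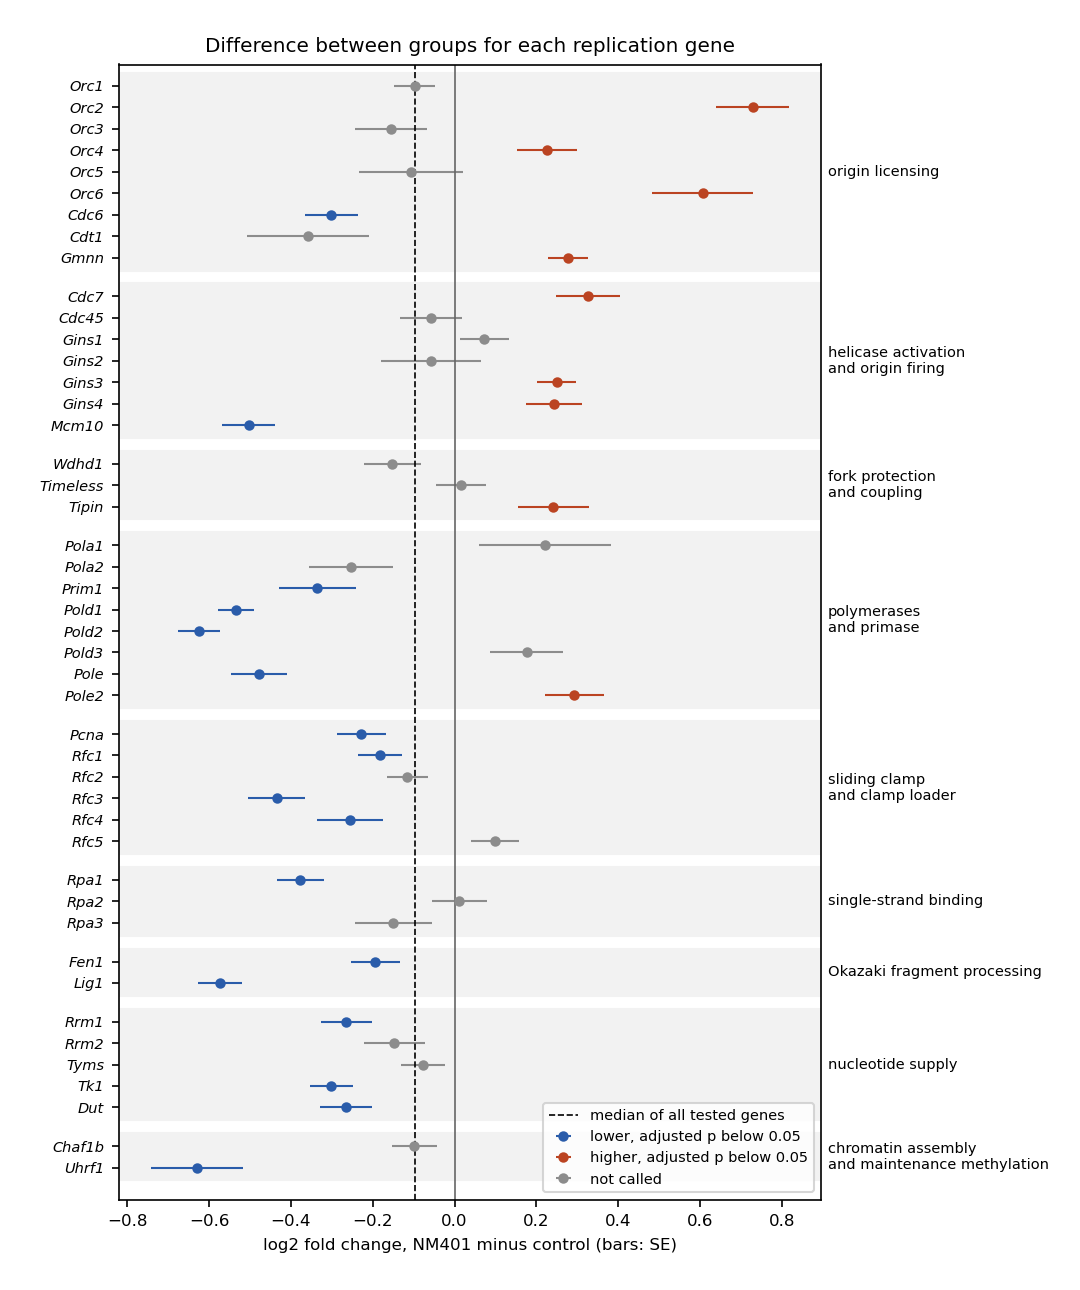
Log2 fold change (NM401 minus control, x axis) with its standard error for each of the 45 replication genes, ordered by role, coloured by whether the adjusted p was below 0.05. Licensing and firing genes lie on both sides of 0. In the clamp and clamp loader, single-strand binding, Okazaki processing, nucleotide supply and chromatin groups no gene was called higher. Of all genes tested, 21.9% were called higher. Rfc5 (0.10) and Rpa2 (0.01) in these groups lie above 0 and were not called.

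In the main fit the roles differed in how their members were spread. Their counts are to be read beside the 35.4% of all genes that fell and the 21.9% that rose. Of the 16 genes counted here that license and fire origins, 7 rose and 2 fell. This count leaves out the helicase genes Mcm2 to Mcm7, which licensing loads and firing turns on. In the wider list below all 6 of them fell, with a median log2 fold change of -0.63. Of 4 other initiation factors tested there, 2 rose and 1 fell. The excess of rises therefore holds for the 16 genes counted and not for licensing and firing as a whole. Of the 26 genes that work at the running fork as polymerases, clamp, loader, single-strand binder, ligase and flap nuclease, or that supply nucleotides or chromatin, 1 rose and 15 fell. Of the 3 fork protection genes 1 rose and 0 fell. The median log2 fold change was -0.10 for licensing, 0.07 for firing and 0.02 for fork protection, and it was -0.29 for polymerases and primase, -0.21 for clamp and loader, -0.15 for single-strand binding, -0.38 for Okazaki processing, -0.26 for nucleotide supply and -0.36 for chromatin. With median scaling the counts were 8 up and 1 down for licensing and firing and 3 up and 5 down for the 26 genes. Of all genes 35% rose and 19.2% fell there. With normexp they were 4 up and 6 down against 0 up and 17 down, where 15.7% of all genes rose and 53.9% fell. Relative to the median of all genes, normexp moved clamp and loader from -0.11 to 0.06. Single-strand binding moved from -0.05 to 0.09 and nucleotide supply from -0.17 to 0.02. Polymerases and primase (-0.12), Okazaki processing (-0.13) and chromatin (-0.13) stayed below it with normexp. The roles were joined in this way after the values were seen, and no test was made of the difference between them.

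**Figure D2:**
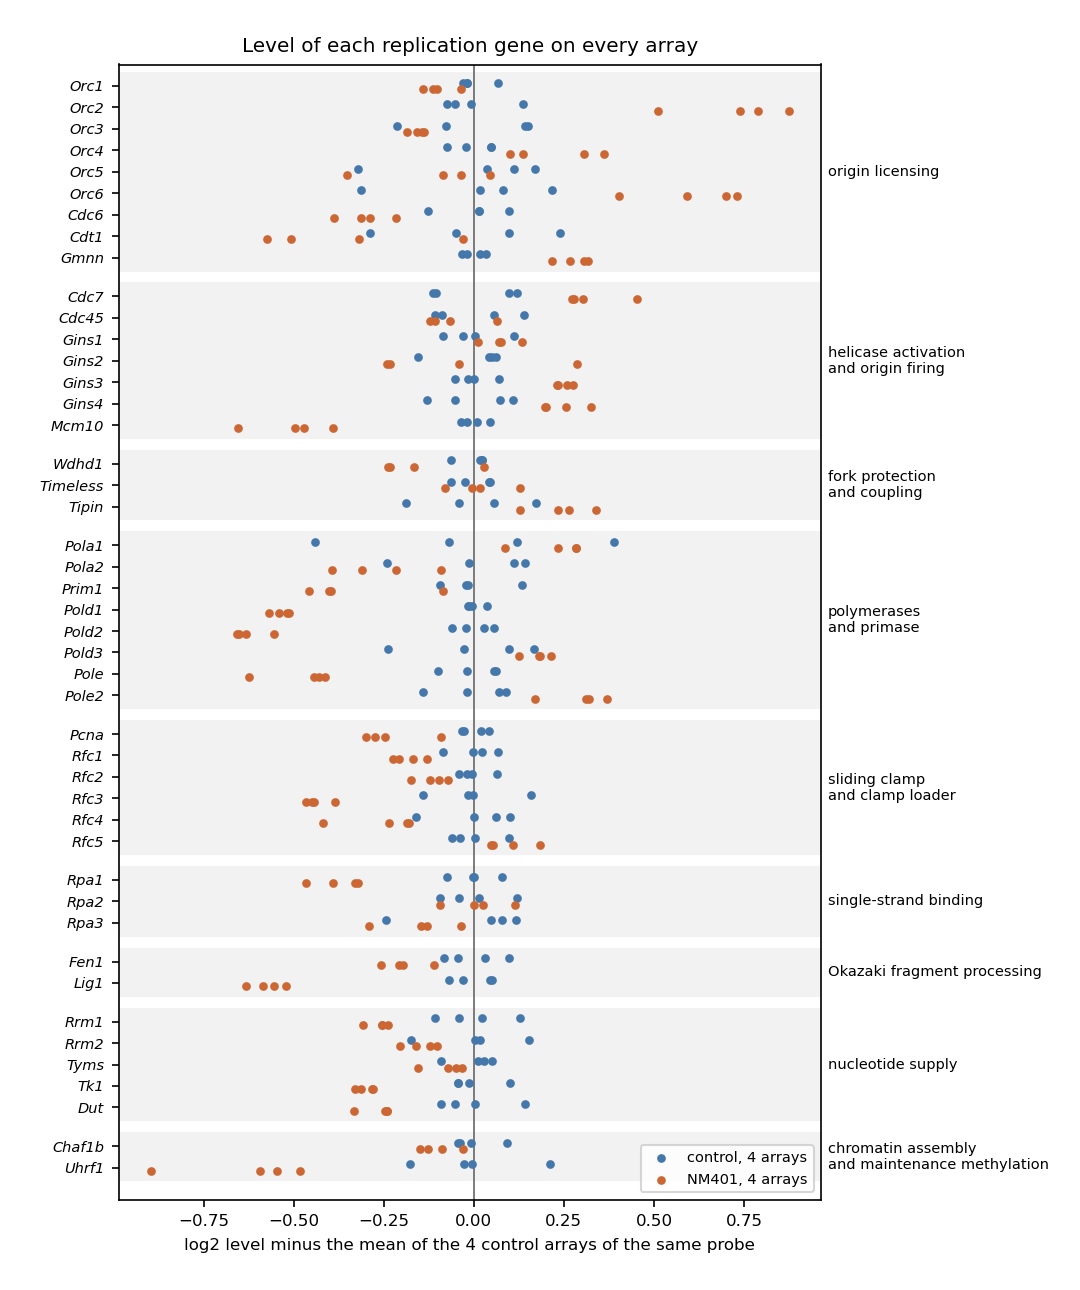
Log2 level of each of the 45 replication genes on each of the 8 arrays, as the difference from the mean of the 4 control arrays of the same probe (x axis), with control in blue and NM401 in orange. Orc2 and Orc6 stand furthest to the right and Uhrf1 and Pold2 furthest to the left by group mean, while genes such as Timeless and Rpa2 have both groups on top of each other.

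Among the licensing genes Orc2, Gmnn, Orc6 and Orc4 rose, Cdc6 fell, and Orc1, Orc3, Orc5 and Cdt1 did not pass. Orc2, a core subunit of the origin recognition complex, had log2 levels of -2.79, -2.85, -2.64 and -2.83 on control arrays and of -2.27, -2.04, -1.99 and -1.90 on NM401 arrays. Every NM401 value was above every control value, and Orc2 rose by 0.73 ± 0.09 in log2 units (SE of the fit, 4 arrays in each group; limma adjusted p = 0.000348), which is 1.66-fold. Its probe lies at chr9:57124989-57125048 of rn4, the rat genome build of the array files, and stands for a predicted transcript. A second, dimmer Orc2 probe at chr9:57131284-57131343, for the curated RefSeq transcript, differed by 0.13 ± 0.14 (adjusted p = 0.433), with groups that overlapped. Orc6, the smallest subunit, was among the dimmest of the genes, with log2 levels of -4.13, -4.26, -4.33 and -4.66 in control and -3.94, -3.61, -3.64 and -3.75 in NM401. Its groups did not overlap and it rose by 0.61 ± 0.12 (adjusted p = 0.00386), but with normexp background correction its difference was 0.06 and with the deposited series values 0.11, neither of them called. Orc4 is a further subunit, and its 2 tested probes went in opposite directions. The brighter one, for the curated transcript at chr3:29813558-29813617, rose by 0.23 ± 0.07 (adjusted p = 0.0301), and the dimmer one, for a predicted variant at chr3:29811541-29811600, fell by 0.48 ± 0.11 (adjusted p = 0.00693). The rise was not called without control replicate 1 or 3 or NM401 replicate 1 or 2 (adjusted p = 0.0636 to 0.0829), and the mean of both probes was -0.13.

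Gmnn encodes geminin, the protein that binds Cdt1 and blocks a further round of licensing in S and G2 phase. Its log2 levels were -1.41, -1.35, -1.39 and -1.34 in control and -1.05, -1.15, -1.10 and -1.06 in NM401. The groups were tight and apart, and Gmnn rose by 0.28 ± 0.05 (adjusted p = 0.00187). Cdc6 encodes the ATPase that joins the origin recognition complex to load the helicase, and its levels were -1.17, -1.16, -1.08 and -1.31 in control and -1.57, -1.49, -1.39 and -1.47 in NM401. All NM401 values were below all control values, and Cdc6 fell by 0.30 ± 0.07 (adjusted p = 0.00537). Cdt1, the loader that geminin blocks, had levels of -2.98, -3.21, -2.83 and -2.69 in control and -2.96, -3.43, -3.25 and -3.50 in NM401. The groups overlapped through NM401 replicate 1, and the difference of -0.36 ± 0.15 did not pass (adjusted p = 0.0708). Without NM401 replicate 1 it was -0.47 (adjusted p = 0.021) and without control replicate 2 it was -0.45 (adjusted p = 0.0325). NM401 replicate 1 was the only NM401 array on the slide of the controls, so without it treatment and slide cannot be told apart. With slide as a block, which rests on that array, the Cdt1 difference was -0.03. The remaining subunits differed by -0.10 (Orc1), -0.16 (Orc3) and -0.11 (Orc5), and Orc3 passed without control replicate 4 (-0.23, adjusted p = 0.0287). Background treatment moved these dim probes: with normexp the differences were -0.41 for Orc1, -0.22 for Orc3, -0.55 for Orc5 and -0.47 for Cdt1, all called lower, and with the deposited series values -0.33, -0.20, -0.45 and -0.43, called for all but Orc3. Under median scaling Orc1 (0.11), Orc3 (0.05) and Orc5 (0.10) lay above 0 and were not called.

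Of the genes that activate the helicase, Mcm10 fell and Gins3, Cdc7 and Gins4 rose. Mcm10, which helps the loaded helicase to start moving and tethers polymerase alpha, had log2 levels of -1.31, -1.39, -1.34 and -1.37 in control and of -2.01, -1.85, -1.74 and -1.82 in NM401. The control values lay within a narrow band well above all NM401 values, and Mcm10 fell by 0.50 ± 0.07 (adjusted p = 0.000459; probe at chr17:84375391-84375450 of rn4). Cdc7 encodes the kinase that phosphorylates the loaded helicase, and its levels were -0.70, -0.93, -0.93 and -0.72 in control and -0.37, -0.54, -0.55 and -0.52 in NM401. The groups did not overlap and Cdc7 rose by 0.33 ± 0.08 (adjusted p = 0.00821). Dbf4, the activating subunit of the Cdc7 kinase and not itself among the 46 genes, rose by 0.86 ± 0.09 (adjusted p = 0.000199).

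The 4 GINS genes encode a ring of subunits that joins Cdc45 and the helicase. Gins3 had levels of -2.04, -2.16, -2.11 and -2.13 in control and -1.84, -1.88, -1.88 and -1.85 in NM401. It rose by 0.25 ± 0.05 with no overlap (adjusted p = 0.00305), and its difference with normexp or the deposited series values was 0.11 in each and not called. Gins4 had levels of -0.03, 0.13, 0.10 and -0.10 in control and 0.35, 0.22, 0.28 and 0.22 in NM401. It rose by 0.24 ± 0.07 (adjusted p = 0.0164). Gins1 differed by 0.07 and Gins2 by -0.06, both with overlapping groups, and a second, dimmer Gins2 probe fell by 0.47 ± 0.16 (adjusted p = 0.0337). Cdc45, the helicase cofactor itself, differed by -0.06 ± 0.08 (adjusted p = 0.537).

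In the fork protection group Tipin, the partner of Timeless in the complex that steadies the fork and passes on checkpoint signals, rose by 0.24 ± 0.09 (adjusted p = 0.0429). Its levels were -0.45, -0.55, -0.34 and -0.70 in control and -0.27, -0.38, -0.25 and -0.17 in NM401. NM401 replicate 2 lay below control replicate 3, so the groups overlapped, and the call was lost without control replicate 1, 2 or 4 or NM401 replicate 1, 3 or 4 (adjusted p = 0.0597 to 0.109). Timeless levels were -0.99, -1.10, -1.06 and -0.99 in control and -1.11, -1.04, -1.02 and -0.91 in NM401, a difference of 0.02 ± 0.06 (adjusted p = 0.843). Wdhd1, which links the helicase to polymerase alpha, differed by -0.15 ± 0.07 (adjusted p = 0.097), and by -0.21 without NM401 replicate 3 (adjusted p = 0.0202). It was also called lower with normexp (-0.30) and the deposited series values (-0.26).

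The polymerase genes held the 2 smallest p-values of the 45 genes, both for polymerase delta, the lagging-strand enzyme. Pold2, its accessory subunit, had log2 levels of 1.90, 2.01, 1.99 and 1.94 in control and 1.40, 1.30, 1.31 and 1.33 in NM401. The gap between the groups was several times the spread within either, and Pold2 fell by 0.62 ± 0.05 (adjusted p = 8.36e-05), 1.54-fold (probe at chr14:86535758-86535817 of rn4). Pold1, the catalytic subunit, had levels of 0.84, 0.89, 0.85 and 0.84 in control and 0.28, 0.31, 0.34 and 0.33 in NM401. It fell by 0.54 ± 0.04 (adjusted p = 8.65e-05), 1.45-fold, again with a gap far wider than the spread (probe at chr1:95010792-95011164, a span longer than the probe). Pold3, a further subunit of the same enzyme, had levels of -0.11, -0.30, -0.18 and -0.52 in control and -0.06, -0.15, -0.10 and -0.09 in NM401. Its groups overlapped and its difference of 0.18 ± 0.09 did not pass (adjusted p = 0.122).

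Polymerase epsilon copies the leading strand, and its members in the list went in opposite directions by the brightest probe of each. Pole, the catalytic subunit, had levels of -2.31, -2.23, -2.39 and -2.23 in control and -2.73, -2.91, -2.72 and -2.70 in NM401. It fell by 0.48 ± 0.07 with no overlap (adjusted p = 0.0007; probe at chr12:46494396-46494586). Its dimmer probes differed by -0.33 ± 0.13 (limma adjusted p = 0.0669) and -0.08 ± 0.13 (adjusted p = 0.627), with groups that overlapped. The mean of all Pole probes differed by -0.30 (limma adjusted p = 0.0165). Pole2, the second subunit, had levels of -3.26, -3.24, -3.47 and -3.35 in control and -3.02, -3.16, -3.01 and -2.96 in NM401. All its NM401 values were above all control values and it rose by 0.29 ± 0.07 (adjusted p = 0.00942; probe at chr6:91159505-91159564), but the difference was 0.00 with normexp and 0.02 with the deposited series values, and it was not called in either. In polymerase alpha with primase, Prim1, the primase catalytic subunit, had levels of 1.60, 1.60, 1.75 and 1.53 in control and 1.53, 1.22, 1.22 and 1.16 in NM401. It fell by 0.34 ± 0.09 (adjusted p = 0.0161), with NM401 replicate 1 at the level of the lowest control. Pola1, the catalytic subunit, differed by 0.22 ± 0.16 (adjusted p = 0.27) and Pola2, its regulatory partner, by -0.25 ± 0.10 (adjusted p = 0.0649). Without 1 array in turn the Pola1 difference ran from 0.07 (without control replicate 3) to 0.35 (without control replicate 2), and it was -0.19 with normexp and -0.12 with the deposited series values, in no case called. Pola2 passed without control replicate 2 (-0.33, adjusted p = 0.0164) or NM401 replicate 3 (-0.31, adjusted p = 0.048), with normexp (-0.37) and with the deposited series values (-0.34).

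The starts of 3 of these polymerase genes and of the ligase gene Lig1 are shown because Pold2, Lig1 and Pole fell and Pole2, the partner of Pole, rose. Pold2, Lig1 and Pole are among the genes with the smallest p, and Pole2 was chosen after its values were seen. Pold1, Orc2 and Mcm10 had a smaller p than Pole but are not shown. Each of them had 0 E2F matches in the promoter windows used here. The sequences are RefSeq promoter windows of build GRCr8, 100 bases before the start of 1 transcript and 30 from it on, written 5′ to 3′ on the gene's strand, in the order chr14:84969067-84969196 (minus strand), chr1:83243070-83243199 (plus), chr12:52053633-52053762 (minus) and chr6:93435332-93435461 (minus). Capitals mark exact matches on either strand to the E2F letters TTTCCCGC, TTTCGCGC, TTTGCCGC or TTTGGCGC, or to CCAAT.
Pold2: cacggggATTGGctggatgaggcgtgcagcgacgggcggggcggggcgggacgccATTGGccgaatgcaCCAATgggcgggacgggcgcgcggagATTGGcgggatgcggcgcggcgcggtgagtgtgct
Lig1: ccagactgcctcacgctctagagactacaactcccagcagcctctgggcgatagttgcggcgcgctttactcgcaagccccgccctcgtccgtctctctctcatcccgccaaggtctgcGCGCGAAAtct
Pole: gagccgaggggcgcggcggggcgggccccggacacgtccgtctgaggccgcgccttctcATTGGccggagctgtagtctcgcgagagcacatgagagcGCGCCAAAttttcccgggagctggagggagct
Pole2: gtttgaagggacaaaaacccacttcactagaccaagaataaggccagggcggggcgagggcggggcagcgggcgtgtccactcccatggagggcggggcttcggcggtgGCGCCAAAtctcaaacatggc

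Pole and Pole2 both carried the match GCGCCAAA near the start, Lig1 carried GCGCGAAA, and Pold2 carried 4 CCAAT matches and 0 E2F matches. Over the whole 300-base windows of the table, 40 of the 46 genes had an entry. An E2F match was found in 17 of the 40 (42.5%), against 2.37% of all promoters and 4.22% of those of tested genes. It was found in 4 of 16 genes that fell, 4 of 7 that rose and 9 of 16 that did not pass. CCAAT was found in 20 of 40 (50.0%), against 39.6% of all promoters and 39.4% of those of tested genes, and in 11 of 16 that fell, 3 of 7 that rose and 5 of 16 that did not pass. The letters TTTGAA, known as the core of a cell-cycle element of G2 and M phase genes, were found in 4 of 40 (10.0%), against 19.4% of all promoters and 13.2% of those of tested genes, and in 1 of 16 that fell, 3 of 7 that rose and 0 of 16 that did not pass. A match is a description of letters and not of a bound site.

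PCNA is the ring that holds the polymerases on DNA, and replication factor C is the 5-subunit machine that loads it. Pcna, Rfc1, Rfc3 and Rfc4 fell, and Rfc2 and Rfc5 did not pass. Rfc3 had log2 levels of 1.61, 1.60, 1.77 and 1.47 in control and 1.23, 1.17, 1.17 and 1.15 in NM401. It fell by 0.44 ± 0.07 with no overlap (adjusted p = 0.00121; probe at chr12:3224623-3224682 of rn4). Pcna was one of the brighter genes, with levels of 2.44, 2.37, 2.37 and 2.42 in control and 2.31, 2.10, 2.13 and 2.16 in NM401. The fall of 0.23 ± 0.06 (adjusted p = 0.0127) kept the groups apart, though NM401 replicate 1 lay nearest to control, and it was not called with quantile normalisation or median scaling. Rfc1, the large subunit, had levels of 0.80, 0.86, 0.82 and 0.71 in control and 0.57, 0.67, 0.59 and 0.63 in NM401, which did not overlap. It fell by 0.18 ± 0.05 (adjusted p = 0.0192), but the sign turned under median scaling (0.02, not called) and the call was lost without NM401 replicate 3 (adjusted p = 0.0544). Rfc4 levels were -1.06, -0.84, -0.90 and -0.80 in control and -1.32, -1.09, -1.08 and -1.13 in NM401. Its groups lay side by side with little gap, and its fall of 0.25 ± 0.08 (adjusted p = 0.0268) was lost without control replicate 2, 3 or 4 or NM401 replicate 1 or 4 (adjusted p = 0.0505 to 0.064). Rfc2 differed by -0.12 ± 0.05 with groups apart (adjusted p = 0.0785) and Rfc5 by 0.10 ± 0.06 (adjusted p = 0.181).

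Replication protein A is a trimer, and 1 of its 3 genes fell. Rpa1, the large DNA-binding subunit, had levels of -1.23, -1.31, -1.38 and -1.31 in control and -1.70, -1.64, -1.63 and -1.78 in NM401. It fell by 0.38 ± 0.06 with no overlap (adjusted p = 0.000948; probe at chr10:62613149-62613208). Rpa2, the middle subunit, ranged from 1.40 to 1.61 in control and from 1.40 to 1.61 in NM401, so the groups coincided, and the difference was 0.01 ± 0.07 (adjusted p = 0.895). Rpa3, the smallest subunit, had levels of 1.08, 1.05, 1.12 and 0.76 in control and 0.96, 0.85, 0.71 and 0.87 in NM401. Its difference of -0.15 ± 0.09 did not pass (adjusted p = 0.202), and without control replicate 4, the low control, it was -0.23 (adjusted p = 0.0274).

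Both genes of Okazaki fragment processing fell, by different amounts. Lig1, the ligase that seals the finished pieces, had levels of 3.36, 3.37, 3.25 and 3.29 in control and 2.79, 2.73, 2.68 and 2.76 in NM401. The groups were far apart, and it fell by 0.57 ± 0.05 (adjusted p = 0.000119), 1.49-fold (probe at chr1:73767369-73767428). Fen1, the nuclease that trims the flap ahead of the ligase, had levels of 2.71, 2.64, 2.53 and 2.57 in control and 2.50, 2.40, 2.35 and 2.41 in NM401. The values did not overlap but nearly touched. Its fall of 0.19 ± 0.06 (adjusted p = 0.0252) turned to 0.01, not called, under median scaling, and it was lost without control replicate 1 or 2 or NM401 replicate 2, 3 or 4 (adjusted p = 0.0578 to 0.0726).

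Of the 5 nucleotide supply genes 3 fell, 0 rose and all 5 differences lay below 0 in the main fit. Of all genes tested, 35.4% fell, 21.9% rose and 58.5% lay below 0. Tk1 encodes thymidine kinase 1, which salvages thymidine in S phase, and its levels were 2.39, 2.53, 2.42 and 2.39 in control and 2.10, 2.15, 2.15 and 2.12 in NM401. The groups were apart, and Tk1 fell by 0.30 ± 0.05 (adjusted p = 0.00182), with a second probe that fell by 0.35 ± 0.06 (adjusted p = 0.00193). Rrm1 encodes the large subunit of ribonucleotide reductase, the enzyme that makes deoxynucleotides from ribonucleotides, and its levels were 3.27, 3.37, 3.14 and 3.20 in control and 2.99, 2.99, 2.94 and 3.00 in NM401. It fell by 0.26 ± 0.06 with no overlap (adjusted p = 0.0072). Rrm2, the small subunit whose amount follows S phase, had levels of 4.10, 4.24, 3.91 and 4.09 in control and 3.92, 3.98, 3.88 and 3.96 in NM401. The groups overlapped through control replicate 3, without which the difference of -0.15 ± 0.07 (adjusted p = 0.123) became -0.20 (adjusted p = 0.0275), and a second, dimmer probe fell by 0.19 ± 0.07 (adjusted p = 0.0419). Dut encodes the enzyme that breaks down dUTP and keeps uracil out of DNA, and its levels were 1.13, 1.27, 1.08 and 1.04 in control and 0.88, 0.89, 0.80 and 0.89 in NM401. It fell by 0.27 ± 0.06, again with no overlap (adjusted p = 0.00829). Tyms, thymidylate synthase, differed by -0.08 ± 0.05 (adjusted p = 0.258). With median scaling none of the 3 falls in this group was called, and Rrm2 (0.06) and Tyms (0.13) lay above 0. Rrm2 also lay above 0 with quantile normalisation (0.09, not called).

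Uhrf1, which brings the maintenance methyltransferase to newly copied DNA, had one of the largest falls, close to that of Pold2. Its levels were -2.67, -2.82, -2.65 and -2.43 in control and -3.13, -3.24, -3.19 and -3.54 in NM401. All NM401 values were below all control values, and it fell by 0.63 ± 0.11 (adjusted p = 0.0021), 1.55-fold, a call that was lost with slide as a block. Chaf1b, a subunit of chromatin assembly factor 1, which places histones behind the fork, had levels of 1.31, 1.41, 1.28 and 1.28 in control and 1.17, 1.29, 1.19 and 1.23 in NM401. The difference of -0.10 ± 0.05 did not pass (adjusted p = 0.156), and a second, dimmer probe fell by 0.18 ± 0.07 (adjusted p = 0.0474). Among the 45 genes, 13 had several tested probes, and Orc4 was the 1 gene whose called probes disagreed in direction.

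Partners in 1 complex could differ in their change even where the array scaling is left out, since a scaling to 1 factor per array drops out of the ratio of 2 genes on that array. Over 10 complexes, chosen after the values were seen, 44 pairs of partner genes were compared, and for 19 of them the ratio on the 4 NM401 arrays lay wholly to one side of that on the 4 control arrays. Of all pairs of tested genes 50% did so, so partners moved apart about as often as unrelated genes, and the pairs named here are examples chosen after their values were seen, by no fixed rule. By an exact permutation test adjusted over the 44 pairs, 0 passed (smallest adjusted p = 0.0662). The 19 pairs without overlap all had the smallest p that this test can give with 4 arrays per group, 0.0286. After adjustment that floor was 0.0662, so no pair could pass here, whatever the size of its shift. The test therefore cannot decide whether a pair shifted. Each ratio was written with the partner on top that makes its mean shift positive, so the sign of a shift is no result. Each ratio uses the brightest probe of a gene, and the dimmer probes of Orc2 and Pole were not called. The log2 ratio of Pole2 to Pole ranged from -1.12 to -0.95 on control arrays and from -0.29 to -0.25 on NM401 arrays, a shift of 0.77 with little spread in either group. That of Pold3 to Pold2 was -2.01, -2.32, -2.17 and -2.45 in control and -1.47, -1.46, -1.40 and -1.42 in NM401, a shift of 0.80. Pold1 and Pold2, the pair that fell together, shifted against each other by 0.09 with overlap. The ratio of Gmnn to Cdt1 shifted by 0.63, that of Orc2 to Orc1 by 0.83, that of Rfc5 to Rfc3 by 0.53 and that of Rpa2 to Rpa1 by 0.39, all with no overlap. The ratio of Rrm2 to Rrm1 was tight and shifted by 0.12, also with no overlap. No pair of GINS subunits, of polymerase alpha and primase subunits or of Timeless and Tipin was without overlap. The level of one probe says nothing about that of another, so the shifts and not the ratios themselves are to be read.

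**Figure D3:**
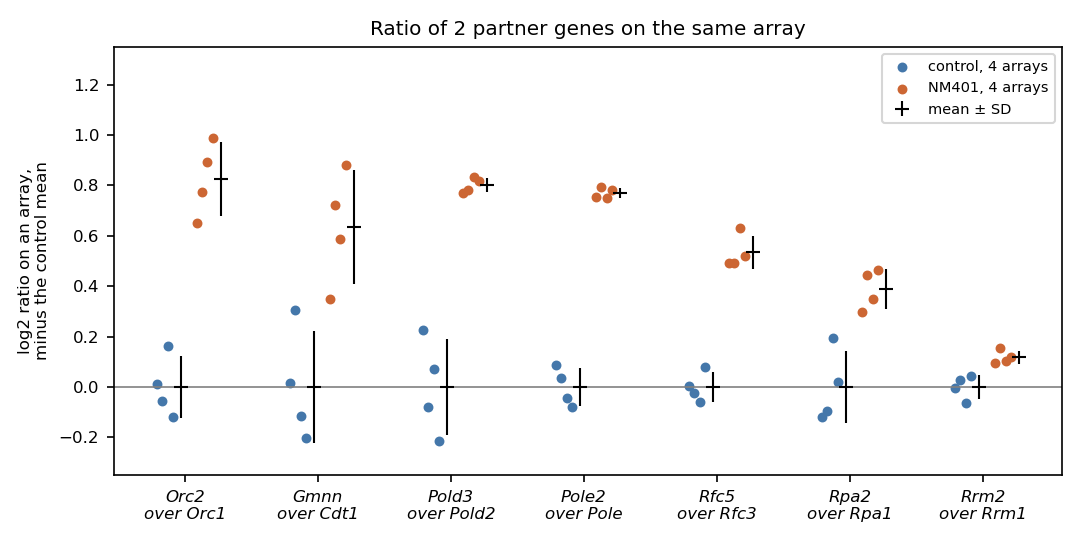
Log2 ratio of 2 partner genes on the same array, minus the control mean of that ratio (y axis), for 7 pairs, with each of the 4 control and 4 NM401 arrays as a point and the mean ± SD in black. The pairs are examples chosen after their values were seen, from those without overlap. Each ratio is written so that its shift is positive, so it is no result that the NM401 points lie above. The shift is 0.12 for Rrm2 over Rrm1 and 0.83 for Orc2 over Orc1.

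The direction of change can be set beside the level of the probe. Of the 19 genes with a mean level above 0, 11 fell and 1 rose, and of the 26 below 0, 6 fell and 8 rose. Of all genes tested, 2255 of 5151 above 0 fell and 986 rose, and 3907 of 12241 below 0 fell and 2829 rose. Spearman's rho between level and log2 fold change was -0.25 across the 45 genes, which share the same 8 arrays, and 0.04 across all genes tested. The part of signal level in the direction of change was not tested.

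A wider list of 72 other replication genes gave 65 tested, of which 27 fell (41.5%), 7 rose (10.8%) and 31 did not pass, with a median log2 fold change of -0.14. Over all genes tested 35.4% fell and 21.9% rose, and the shares in this list and in its smaller groups are to be read beside these. The replicative helicase genes Mcm2 to Mcm7 fell in 6 of 6 cases, led by Mcm2 (-0.84 ± 0.06, adjusted p = 4.57e-05) and Mcm6 (-0.77 ± 0.06, adjusted p = 8.77e-05). Recql4, a helicase-like initiation factor, rose by 0.49 ± 0.11 (adjusted p = 0.00726). Prim2, the second primase subunit, fell by 0.28 ± 0.07 (adjusted p = 0.00905), beside its partner Prim1. Chtf18, of the alternative clamp loader, fell by 0.66 ± 0.08 (adjusted p = 0.000384), and Rad17, of the checkpoint clamp loader, rose by 0.23 ± 0.07 (adjusted p = 0.0177). Chek1, the kinase of the fork checkpoint, rose by 0.76 ± 0.18 (adjusted p = 0.00821), and Rnaseh2c, of the nuclease that removes ribonucleotides from DNA, fell by 0.61 ± 0.06 (adjusted p = 0.000121).

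Of 17 further nucleotide enzyme genes 8 fell and 1 rose. Dctpp1, which clears unwanted deoxycytidine triphosphates, and Mthfd1, a folate enzyme that feeds thymidylate and purine synthesis, fell by 0.70 ± 0.05 (adjusted p = 5.19e-05) and 0.70 ± 0.07 (adjusted p = 0.000121). Of 5 other chromatin factors that work with replication, the histone-binding gene Rbbp4, which also serves chromatin assembly factor 1, fell by 0.81 ± 0.07 (adjusted p = 8.31e-05), and the histone chaperone gene Nasp rose by 0.40 ± 0.05 (adjusted p = 0.000397). Of 13 genes of S-phase transcription control 5 fell and 0 rose, among them the activator E2f2 (-0.86 ± 0.07, adjusted p = 6.74e-05) and E2f7, an atypical repressor of the family (-0.34 ± 0.06, adjusted p = 0.00137). Among 8 genes of other cell cycle stages 3 rose and 1 fell, beside 21.9% and 35.4% of all genes. Mki67 (0.13), Cdk1 (0.12), Ccnb1 (0.08) and Aurka (0.00) did not pass. Bub1, a spindle checkpoint kinase, rose by 0.79, Birc5 (survivin) by 0.77 and the kinetochore gene Cenpf by 0.65, and Plk1, a mitotic kinase, fell by 0.29.

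How many replication genes were called in each direction moved with the scaling, as it did for all genes. Under median scaling, which moved the median of all genes from -0.10 to 0.11, 6 replication genes fell and 13 rose, and the share of rises among all called genes went from 38.2% to 64.6%. Under quantile normalisation 12 fell and 10 rose (51.7% of all calls were rises, median of all genes 0.01). With normexp background correction 24 fell and 5 rose (22.6%, median -0.24), and with the deposited series values 22 fell and 5 rose (25.1%, median -0.21). Of all genes tested, 19.2% fell and 35% rose under median scaling, and 26.7% fell and 28.6% rose under quantile normalisation. These shares were 53.9% and 15.7% with normexp and 48.3% and 16.2% with the deposited series values. With slide as a block 10 replication genes fell and 5 rose, against 20.2% and 12.7% of all genes. On slide 1 alone the median log2 fold change of the 45 genes relative to all genes was -0.01. Both of these take their differences from NM401 replicate 1 against the 4 control arrays, since slide 2 held no control. Pold1, Pold2, Lig1 and Mcm10 were called lower in all 18 alternatives run, 2 of which rest on that 1 NM401 array. Pole lower and Orc2, Gmnn and Cdc7 higher were called in all but slide 1 alone. The other 12 falls and 6 rises were lost in at least 1 alternative besides. Median scaling lost the falls of Cdc6, Prim1, Pcna, Rfc1, Rfc3, Rfc4, Rpa1, Fen1, Rrm1, Tk1 and Dut. The slide block lost the falls of Prim1, Pcna, Rfc1, Fen1, Rrm1, Dut and Uhrf1 and the rises of Orc6, Gins4, Tipin and Pole2.

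**Figure D4:**
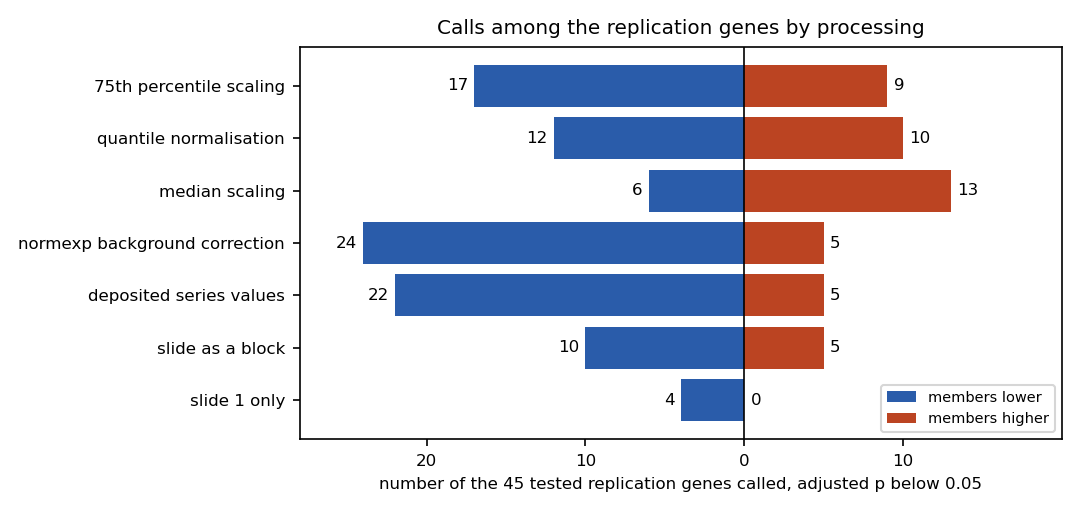
Number of the 45 replication genes called lower (blue, to the left) and higher (red, to the right) at an adjusted p below 0.05 under 7 ways of processing the same arrays. The count runs from 24 lower and 5 higher with normexp to 6 lower and 13 higher with median scaling. Of all genes tested, 53.9% were lower and 15.7% higher with normexp, and 19.2% lower and 35% higher with median scaling.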

How the data were processed

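The authors deposited scanner tables of 8 one-colour (Cy3) arrays, for which the submitters' processing notes name Agilent Feature Extraction 11.0.1.1. Spot intensity (processed signal) in them was background-subtracted within each array and not scaled between arrays, per the file headers. The series' deposited values held the median pixel intensity for 503808 of 503808 spot values compared, so they were linear, not background-subtracted and not centred. Probe positions are on rn4, per the file headers; no annotation of that build was used, so exon or UTR is not given, and no position is listed for the brightest probes of Cdc45, Rrm1 and Tk1. Promoters and names come from RefSeq tables of build GRCr8.

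From these, log2 processed signal minus each array's 75th percentile over 58717 non-control spots was computed, outlier spots were dropped and spots of a probe averaged. Probes above background by the software's flag on 4 or more of the 8 arrays (21684) were tested with limma 3.58.1 in R 4.3.3 (lmFit and eBayes, two-sided, no covariate; files read with data.table, version 1.17.8), adjusted by Benjamini-Hochberg over all of them. A gene stands for its brightest tested probe. The fit was tested on simulated data. The number of arrays, 4 per group, limits the precision, and beyond "biological replicates" the labels do not say how the cultures were made.

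The genes, lists and tests were chosen with earlier results of these data known. Values on every array are given for up to 4 genes of each role with the smallest p, and for Timeless, Cdt1, Pold3, Rpa2 and others that complete a complex. Of the wider list up to 2 genes of each group with the smallest p are named, where called. Partner ratios and the promoter of Pole2 were chosen after their values were seen, and all 8 genes of other cell cycle stages are named. Alternatives were normexp (offset 50), quantile and median scaling, no filter or all 8 arrays, the mean of a gene's probes, the deposited series values, slide as a block or slide 1 alone, a replicate block, and leaving out each array.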

Additional observations from a re-analysis of the deposited data

Results flagged for a closer look

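In 6 of 90 groups of 4 arrays, 1 array stood far from the other 3 for its gap against the group's range. Chance gives about 1 in 20 such groups. Orc1 on control replicate 4 was at -4.02 on the log2 scale, above controls that lay from -4.11 to -4.10. Gins2 on control replicate 3 was at -2.81, below controls at -2.62 to -2.60. Wdhd1 on control replicate 1 was at -2.84, below controls at -2.76 to -2.75. Prim1 on NM401 replicate 1 was at 1.53, above NM401 arrays at 1.16 to 1.22, and that array was the one NM401 array on slide 1. Pole on NM401 replicate 2 was at -2.91, below NM401 arrays at -2.73 to -2.70. Dut on NM401 replicate 3 was at 0.80, below NM401 arrays at 0.88 to 0.89.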

How the results depend on the processing

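Counts of replication genes that fell (17) stayed within 1.5 times except for median scaling (6), slide as a block (10) and slide 1 alone (4). Counts that rose (9) did so except for normexp (5), the deposited series values (5), slide as a block (5) and slide 1 alone (0). With no filter on dim probes 12 fell and 6 rose, against 21.4% and 8.15% of all genes. Without 1 array in turn 15 to 18 fell and 7 to 8 rose, against 31% to 35.2% and 18.8% to 21.2% of all genes. The genes' median log2 fold change relative to all genes, -0.0507, turned to 0.0544 with normexp, 0.244 with no filter on dim probes and 0.0356 with the deposited series values. It was -0.0692 with quantile normalisation, -0.0140 with slide as a block and on slide 1 alone, and between -0.0546 and -0.0122 without 1 array in turn. Of single genes, Rfc1 (0.0210) and Fen1 (0.0102) turned under median scaling and Orc4 (-0.13) with the mean of its probes. The causes were not tested. With a replicate block 17 fell and 8 rose, against 33.5% and 20.3% of all genes. The calls of Rfc1 (limma adjusted p = 0.0504) and Tipin (0.0769) were lost there and that of Pola2 (0.0315) was gained. The replicate numbers share a number and not a known culture, with correlations of deviations from -0.073 to 0.193, and replicates 1 and 3 but not 2 and 4 correlated best with their own number. Pairs of partners without overlap numbered 19, and 22 with normexp, 21 with the deposited series values and 18 with quantile normalisation, alternatives chosen after seeing the data. All 45 genes were well above background on every array, yet the dim probes of Orc1, Orc5, Orc6 and Pole2 moved with the background treatment.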
